A study of Rattus norvegicus with 30 samples.

Results

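Of the 17134 genes in the table of brain RNA-seq values, 10 are described here as the circadian clock genes: Arntl (Bmal1), Per1, Per2, Per3, Cry1, Ciart, Nr1d1, Nr1d2, Dbp and Tef. They are defined by name, a choice made with earlier results of these data known, and all 10 were found under 1 gene symbol each. RNA was sequenced from 30 male Sprague Dawley rats on normal diet, 10 WT, 10 HIP and 10 AKO. WT rats express their own rat amylin, a pancreatic hormone co-released with insulin. HIP rats carry, beside rat amylin, a transgene for amyloid-forming human amylin that is expressed in the β-cells of the pancreas. WT and HIP rats were 15 to 16 months old, whereas AKO rats lack rat amylin. No age is stated for the 10 AKO rats sequenced. AKO rats used elsewhere in the study were as old as the WT and HIP rats for tissue work, or younger for injections. The identifiers of 6 AKO rats hold the letters AKO and those of the other 4 the letters KAH. Those of all WT and HIP rats hold the letters RT, and no meaning is given for any of these. A difference that goes with the series of identifiers therefore cannot be told apart from the AKO genotype. Rats were kept on a 12 h light cycle. The time of day at which tissue was taken is not given, so where each rat stood in its daily cycle is not known, and a difference in time of collection between groups cannot be told apart from a difference in genotype. The amylin gene itself is not analysed here.

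The mammalian clock is a feedback loop of transcription that runs in nearly every cell, brain included. Arntl and its partner Clock form an activator that binds E-box elements (CACGTG). It switches on the Per and Cry genes, whose proteins return to the nucleus and stop the activator. Ciart also represses the activator. Nr1d1 and Nr1d2 (Rev-erbα and Rev-erbβ) are nuclear receptors that are switched on by the same E-boxes and hold Arntl down through retinoid-related orphan receptor elements (ROREs). Dbp and Tef are PAR bZIP transcription factors, outputs of the loop that bind D-box elements. In a tissue with a running clock, Arntl transcripts peak in a phase opposite to those of Dbp, and Per1 also answers to glucocorticoids and to neuronal activity.

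The tissue is called frontal cortex in the sample annotation, while the study's text calls it cerebral cortex in one place and hippocampus in another. Neocortex markers (9 of 10 listed genes in the table) summed to between 29413 and 55275 normalized counts in 29 rats. WT rat 10RT43 had 16259, with 77427 for the 10 cerebellum markers against at most 2890 in other WT rats. HIP rat 12RT23 had 10915 for cerebellum markers. HIP rat 10RT46 had 23950 for pineal gland markers and 17497 for choroid plexus markers, and AKO rat 7AKO19 had 4040 for choroid plexus markers. Calls that change without these 4 rats are given beside the result. Over all genes, the median correlation of log2 values with the other rats was 0.885 for 10RT43 and 0.948 for 10RT46. It was 0.949 for AKO rat 6KAH98, 0.953 for AKO rat 4KAH27 and at least 0.965 in the rest, 12RT23 and 7AKO19 included. Rats 6KAH98 and 4KAH27 were kept in the fits without the 4 rats. Because the tissue is bulk RNA, fewer cells of a type and less RNA per cell cannot be told apart. Totals were 15.4 to 18.0 M normalized counts per rat.

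The letters upstream of Ciart, Per2 and Arntl are shown because they hold elements named above. No relation of these letters to the levels was tested. RefSeq entries of the GRCr8 assembly (250 bases before to 50 after the start of each gene) were found for 9 of 10 members, with 2 entries for Nr1d1. The reads themselves were counted on rn7. Capitals mark E-boxes in Ciart (chr2:186112197-186112496, minus strand), a D-box (TTATGTAA) in Per2 (chr9:99496944-99497243, minus strand) and an extended RORE (GTAGGTCA) in Arntl (chr1:176766078-176766377, plus strand).
Ciart: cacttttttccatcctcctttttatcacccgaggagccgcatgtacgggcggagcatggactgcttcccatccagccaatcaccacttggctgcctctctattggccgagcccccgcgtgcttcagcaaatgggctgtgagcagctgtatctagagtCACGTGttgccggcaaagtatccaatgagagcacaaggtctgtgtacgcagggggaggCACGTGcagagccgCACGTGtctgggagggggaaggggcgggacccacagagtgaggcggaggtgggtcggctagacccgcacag
Per2: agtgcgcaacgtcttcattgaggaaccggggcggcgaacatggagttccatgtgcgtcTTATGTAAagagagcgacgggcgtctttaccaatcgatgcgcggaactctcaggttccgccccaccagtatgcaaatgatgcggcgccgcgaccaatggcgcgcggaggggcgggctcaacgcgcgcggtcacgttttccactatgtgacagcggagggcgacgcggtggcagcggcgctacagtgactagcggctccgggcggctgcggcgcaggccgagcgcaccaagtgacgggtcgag
Arntl: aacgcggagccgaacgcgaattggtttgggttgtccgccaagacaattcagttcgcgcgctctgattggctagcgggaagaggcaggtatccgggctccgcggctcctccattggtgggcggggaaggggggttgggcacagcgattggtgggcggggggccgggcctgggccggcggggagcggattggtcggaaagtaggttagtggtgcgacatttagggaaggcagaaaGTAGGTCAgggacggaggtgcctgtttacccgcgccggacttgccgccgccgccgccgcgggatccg

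Ciart held 3 E-boxes, beginning 93, 35 and 21 bases before its start. Of 33469 RefSeq promoters of the same length, 6.42% held at least 1 E-box and 19 held 3 or more. Tef and the second entry of Nr1d1 held 1 E-box each, 198 and 191 bases before the start. The D-box of Per2 began 192 bases before the start, and 0.893% of promoters held one. The letters GTAGGTCA in Arntl began 17 bases before the start and were picked after its sequence had been seen. They were in 0.598% of promoters, and their core AGGTCA, which overlaps them, was in 16.2% and also in Nr1d2. Both strands were searched, also for the cyclic AMP element TGACGTCA (1.83% of promoters, none of the members). The windows of Per1, Per3, Dbp and the first entry of Nr1d1 held none of these letters, which says nothing of elements elsewhere.

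Every member was expressed in every rat, and no group was separate from another for any of them. Levels are given as the lowest, the median and the highest of 10 rats, in normalized counts, and they are not compared between genes because the values are not per length. For Arntl, the activator, WT rats had 425, 556 and 793, HIP rats 456, 535 and 860, and AKO rats 354, 566 and 900. The highest rats were 10RT47, 10RT48 and 4KAH27, and the 3 groups overlapped over nearly their whole range.

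Among the repressors, Per1 had the widest HIP range of the Per genes. It reached 653, 1225 and 1808 in WT rats, 712, 1295 and 2172 in HIP rats and 899, 1344 and 1836 in AKO rats. Per2 had 518, 974 and 1404 in WT rats, 459, 858 and 1169 in HIP rats and 341, 842 and 1245 in AKO rats. For Per3 the values were 358, 424 and 1043 in WT rats, 333, 431 and 655 in HIP rats and 136.1, 404 and 640 in AKO rats. The WT maximum of Per3 was rat 10RT43, the rat with cerebellum markers, and the next WT rat had 692. AKO rat 6KAH98 was the lowest of all 30 rats for Per2, Per3, Nr1d2 and Tef. Its values over all genes also stood apart, as given above. WT rat 10RT47 had the lowest Per2, Per3, Cry1, Ciart and Dbp of the WT rats together with their highest Arntl.

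Cry1, which represses the activator together with Per proteins, had 145.01, 233 and 569 in WT rats, 169, 202 and 269 in HIP rats and 177, 196 and 455 in AKO rats. The highest values were again WT rat 10RT43 and AKO rat 4KAH27, and without them the group maxima were 306 and 273. Ciart had 150, 273 and 389 in WT rats, 127, 258 and 410 in HIP rats and 63.3, 198 and 643 in AKO rats. Its AKO rats thus spanned 10.2-fold, with 6KAH99 at the bottom and 4KAH27 at the top, against 2.59-fold in WT and 3.23-fold in HIP rats.

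Of the nuclear receptors, Nr1d1 had 2239, 2999 and 3953 in WT rats, 2408, 2915 and 3790 in HIP rats and 1849, 2746 and 3447 in AKO rats. Nr1d2 had 1513, 1803 and 3217 in WT rats, 1392, 1861 and 2504 in HIP rats and 737, 1535 and 2670 in AKO rats. For Nr1d2, 8 of 10 AKO rats were below the WT median, although the highest AKO rat, 4KAH27, was above all WT rats except 10RT43.

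Of the output factors, Dbp had 2029, 2956 and 3545 in WT rats, 1423, 2609 and 3526 in HIP rats and 1213, 2387 and 3106 in AKO rats. Only 1 AKO rat was above the WT median of Dbp, and the lowest AKO rat was 6KAH99. Tef, the member that varied least, had 5083, 5662 and 6891 in WT rats, 4655, 5437 and 6464 in HIP rats and 3709, 5212 and 7694 in AKO rats.

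**Figure D1:**
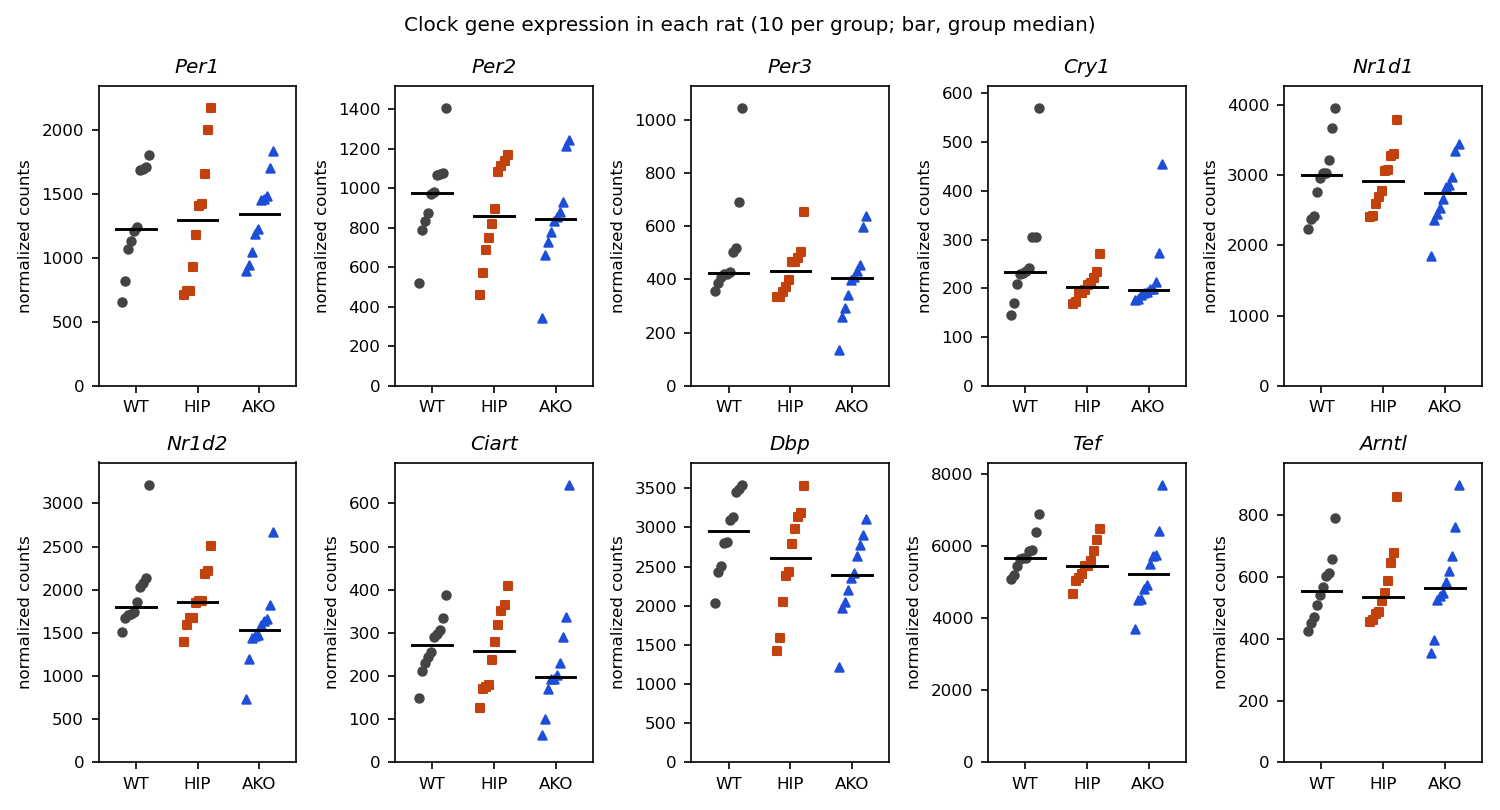
Normalized counts (vertical axes, starting at 0) of the 10 clock genes in each of 10 WT, 10 HIP and 10 AKO rats, with 1 point per rat and a bar at the group median. The groups overlap for every gene, and single rats stand apart for Per3 and Cry1 in WT rats (1043 and 569) and for Ciart and Cry1 in AKO rats (643 and 455).

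Most members varied more between rats of a group than other genes did. The SD of log2(normalized count + 1) after removal of group means was 0.66 for Ciart, more than 93.9% of the 11590 genes that averaged 100 normalized counts or more, whose median SD was 0.25. It was 0.49 for Per1 and for Per3 (87.0% of genes below each), 0.46 for Per2 (84.5%) and 0.41 for Cry1 (80.4%). Dbp (0.37, 76.0%), Nr1d2 (0.35, 73.7%) and Arntl (0.33, 69.0%) were next, while Nr1d1 (0.25, 50.02%) and Tef (0.20, 32.9%) were at or below the middle. Without the 4 rats with other tissue, all but Tef were above 64% of genes (Nr1d1, 64.3%).

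The comparison of HIP with WT rats asks whether human amylin in the pancreas goes with a change of brain expression. None of the 10 members had an unadjusted p under 0.05 (limma on log2(normalized count + 1), two-sided), and 2.57% of the 17085 genes tested had one. The largest log2 differences were those of Cry1 (-0.27, standard error 0.17, p = 0.132) and Dbp (-0.24, standard error 0.15, p = 0.136). For Per1 the 95% confidence interval ran from -0.53 to 0.43 and for Ciart from -0.54 to 0.32, so that true differences of up to about that size were not excluded. The intervals were narrowest for Tef (-0.20 to 0.06) and Nr1d1 (-0.22 to 0.21). With limma's p adjusted by Benjamini-Hochberg over all genes tested, 0 members and 0% of genes had an adjusted p under 0.05. The median log2 difference was -0.09 over the members and 0.0018 over all genes tested.

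In AKO rats, Dbp and Nr1d2 were lower than in WT rats by the unadjusted test. For Dbp, AKO rats had 2362 ± 548 and WT rats 2930 ± 506 normalized counts (mean ± SD, n = 10 per group), a log2 difference of -0.33 (standard error 0.14, 95% confidence interval -0.63 to -0.04, limma, p = 0.0280). For Nr1d2 the means were 1569 ± 489 and 1968 ± 482, a log2 difference of -0.36 (standard error 0.17, 95% confidence interval -0.71 to -0.01, limma, p = 0.0422). These 2 of 10 members stand beside 9.34% of the 17058 genes tested at the same threshold. Neither passed adjustment over all genes (limma, adjusted p = 0.474 for Dbp and 0.517 for Nr1d2), a threshold that 0.0997% of genes and 0 members passed. In the same comparison, Per3 had a log2 difference of -0.42 (p = 0.0874) and Ciart one of -0.37 (p = 0.216). The median over the members was -0.20, and over all genes tested 0.0014.

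Both calls lay close to the threshold. Nr1d2 lost it when any 1 of 10 rats was left out and Dbp when any 1 of 4 was, mostly with a difference of about the same size. Nr1d2 had a log2 difference of -0.28 (limma, p = 0.0833) without WT rat 10RT43 and of -0.25 (p = 0.0841) without AKO rat 6KAH98, its highest WT and lowest AKO rats, and -0.27 (p = 0.102) without the 4 rats with other tissue. It had -0.45 (limma, p = 0.00702) without AKO rat 4KAH27 and -0.30 (p = 0.00196) with sample-quality weights. Without 4KAH27, Ciart (-0.56, limma, p = 0.0378) and Tef (-0.19, p = 0.0429) were also below 0.05. Dbp had -0.23 (limma, p = 0.0508) without AKO rat 6KAH99, and with the 6 AKO rats of the letters AKO alone it had -0.19 (limma, p = 0.151), whereas Nr1d2 then had -0.30 (p = 0.0303). The summed level of the 6 microglia markers was higher in AKO rats, with a median of 5313 (range 3023 to 6010) against 4169 (range 2264 to 5012) in WT rats, and that of the 6 astrocyte markers had a median of 67593 (range 51423 to 80915) against 56242 (range 53986 to 72569). Their part in the differences of Nr1d2 and Dbp was not tested.

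Between HIP and AKO rats, 0 members had an unadjusted p under 0.05, beside 12.7% of the 17092 genes tested, and 0 members and 0.17% of genes had an adjusted p under 0.05 (limma). Nr1d2 came nearest, with 1883 ± 334 in HIP rats and 1569 ± 489 in AKO rats (mean ± SD, n = 10 per group), a log2 difference of 0.31 (standard error 0.16, limma, p = 0.0597). All HIP rats but 1 were above the AKO median of Nr1d2. Without AKO rat 4KAH27, the AKO rat with the highest Nr1d2, the log2 difference was 0.40 (limma, p = 0.00849), and without the 4 rats with other tissue it was 0.38 (p = 0.0425). Without AKO rat 6KAH98, which had the lowest Nr1d2, it was 0.19 (limma, p = 0.124). The comparisons with WT rats share the 10 WT rats, and HIP and AKO rats each enter 2 comparisons, so their values are not independent.

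**Figure D2:**
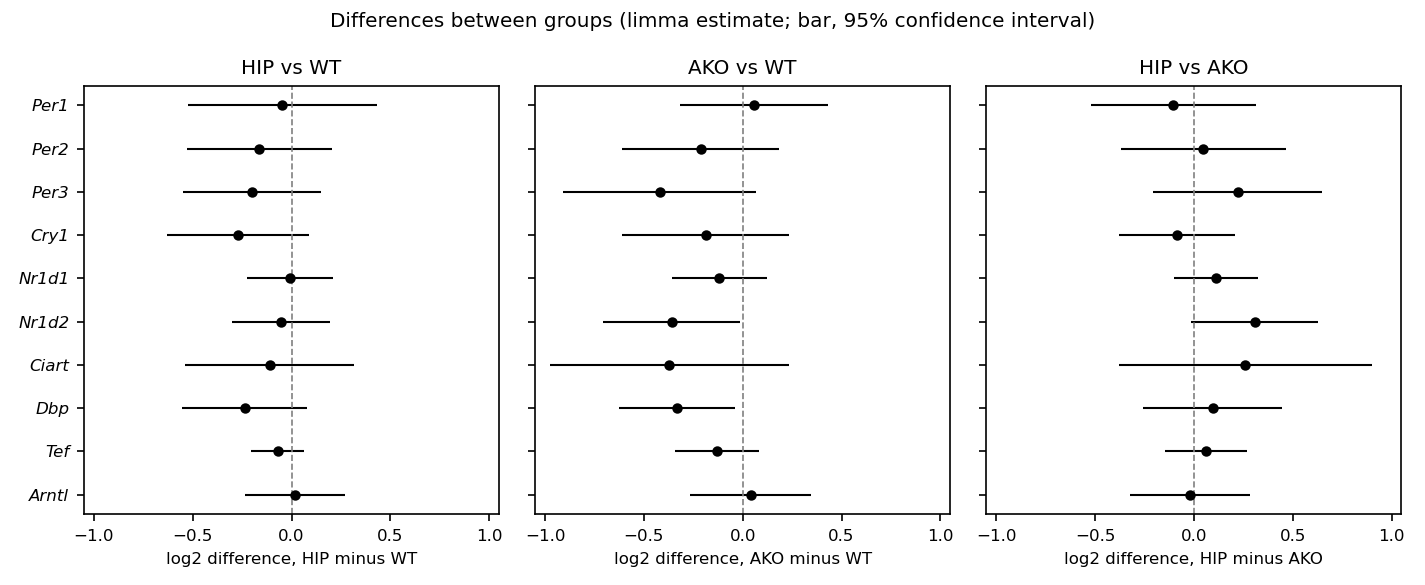
Log2 differences (horizontal axes, dashed line at 0) of the 10 clock genes for HIP minus WT, AKO minus WT and HIP minus AKO rats, with 10 rats per group. Points are limma estimates and bars 95% confidence intervals, and the interval leaves out 0 for Dbp and Nr1d2 in AKO minus WT alone.

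From rat to rat, the members did not vary independently. After group means were removed, 37 of the 45 pairs of members had a positive and 8 a negative Pearson correlation over the 30 rats. Arntl accounted for 7 of the negative pairs, since it correlated negatively with 7 of the 9 other members, and without Arntl 35 of 36 pairs were positive. By within-group permutation (100000 resamples, two-sided), 27 of 45 pairs had p under 0.05 for Pearson's r, and 24 for both Pearson's r and Spearman's rho. The same share over pairs of all genes was not computed. Of the 9 pairs with Arntl, 2 had a permutation p under 0.05 for both, those with Dbp and Per3. The median r of these 9 pairs was -0.18. Arntl had r = -0.006 with Nr1d1, 0.02 with Nr1d2 and 0.14 with Tef. In the limma fits described below, the genes with an unadjusted p under 0.05 numbered 868 of 17102 with Per1. They numbered 7141 with Per3, 5738 with Nr1d2 and 5356 with Cry1. Of the 9 other members, 4 had one with Per1, 4 with Per3, 6 with Nr1d2 and 5 with Cry1. Normalization, depth and tissue are shared by both genes of a pair, and their part in these correlations was not tested.

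The strongest positive pair was Nr1d2 with Tef (r = 0.76, permutation p = 4e-05; rho = 0.70, p = 4e-05). It had r = 0.80 without the 2 rats farthest from the median of Nr1d2 and 0.84 without the 4 rats with other tissue. Per1 and Per2 had r = 0.72 and rho = 0.78 (permutation p = 1e-05 for each, the smallest that these resamples can give), and r = 0.73 without the 2 farthest rats. Ciart correlated at about the same strength with Tef (r = 0.72), Dbp (r = 0.70), Nr1d2 (r = 0.70) and Nr1d1 (r = 0.69), members whose genes are all known targets of the activator. Each of these 4 was positive in all 3 groups, with the lowest r in WT rats (0.15 with Tef, 0.52 with Dbp, 0.50 with Nr1d2 and 0.35 with Nr1d1).

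Arntl moved opposite to Dbp and Per3. For Dbp and Arntl, r was -0.58 (permutation p = 0.00125) and rho -0.44 (p = 0.0189), with r of -0.31 in WT, -0.73 in HIP and -0.61 in AKO rats. It was -0.43 without the 2 rats farthest from the median of Dbp, AKO rat 6KAH99 and HIP rat 10RT48. These had the lowest Dbp of their groups (1213 and 1423) and, with 762 and 860, Arntl levels among the highest. Per3 and Arntl had r = -0.57 (permutation p = 0.00273) and rho = -0.64 (p = 0.00039), and r = -0.68 without the 2 farthest rats. Dbp and Ciart had r = 0.70 (permutation p = 6e-05) and rho = 0.69 (p = 0.00012), and 0.52 without 6KAH99 and 10RT48.

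Some correlations were smaller without the 2 rats farthest from the median. Per3 and Nr1d2 had r = 0.52 over all rats (permutation p = 0.0156; rho = 0.18, p = 0.362) and r = -0.03 without WT rat 10RT43 and AKO rat 6KAH98. Per3 and Cry1 had r = 0.44 (permutation p = 0.0360; rho = 0.43, p = 0.0199) and r = 0.17 without the same rats. Nr1d2 and Cry1 had r = 0.59 (permutation p = 0.00248; rho = 0.41, p = 0.0270) and r = 0.47 without them. Dbp and Cry1 had an r that rounded to 0.00, and with 10 rats a group the correlation of Per1 with Per3 ranged from 0.85 in HIP rats to -0.07 in AKO rats, a difference that was not tested.

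**Figure D3:**
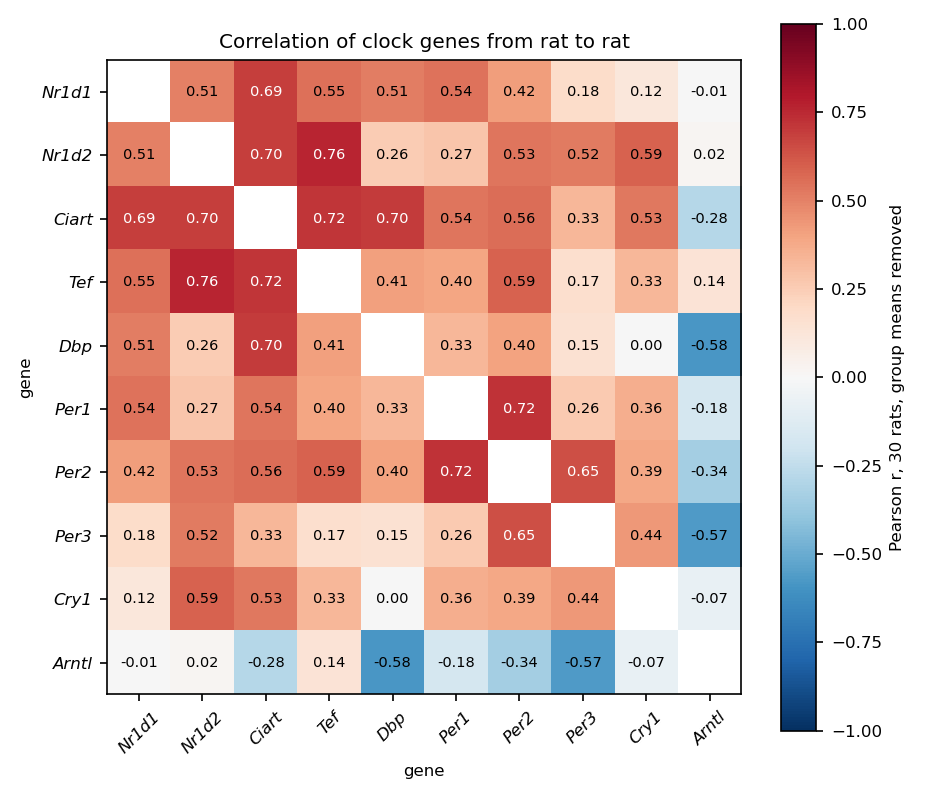
Pearson correlation (colour, from -1 to 1) of each pair of the 10 clock genes over 30 rats after group means were removed, both axes listing the genes. The row of Arntl is mostly negative, down to -0.58 with Dbp, but holds -0.01 with Nr1d1 and 0.02 with Nr1d2. The block of Nr1d1, Nr1d2, Ciart and Tef is positive throughout, up to 0.76.

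**Figure D4:**
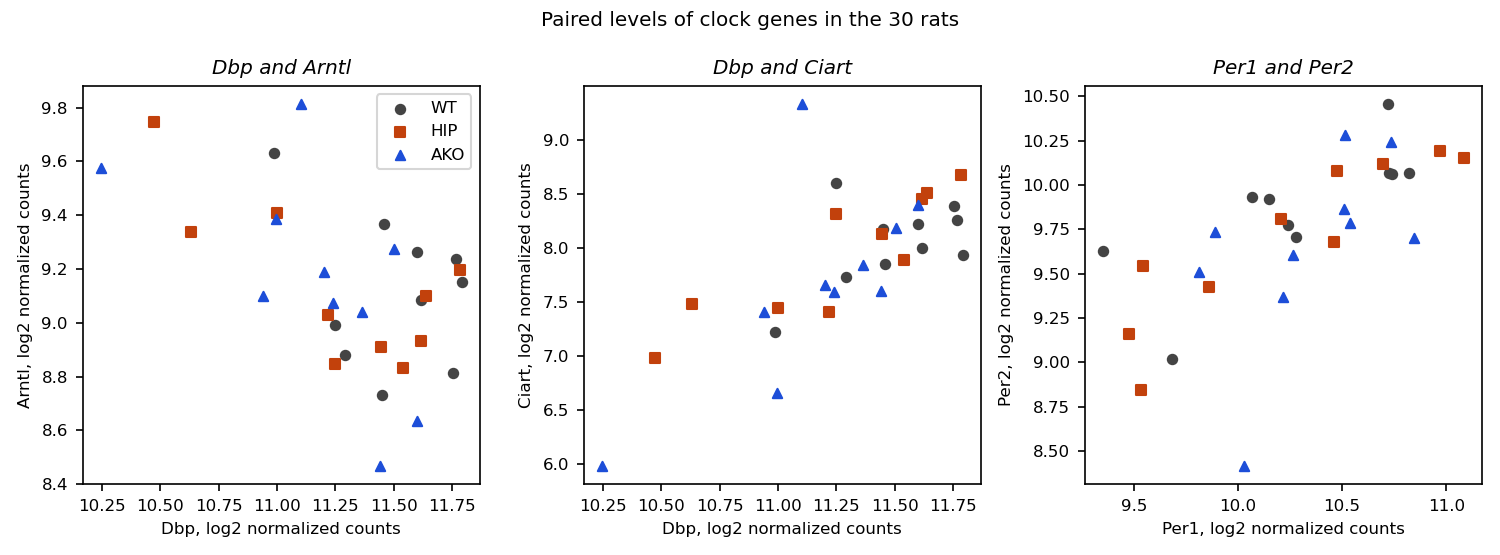
Log2 normalized counts of Dbp against Arntl, Dbp against Ciart and Per1 against Per2, with 1 point per rat and the groups by colour and shape. Arntl falls with Dbp (r = -0.58), while Ciart rises with Dbp (r = 0.70) and Per2 with Per1 (r = 0.72).

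The same relations were set against all other genes with limma, with each member in turn as the covariate of a fit to 17102 genes with group means in the model. With Dbp, 5 of the 9 other members had an unadjusted p under 0.05, beside 5.3% of all genes. Ciart, Nr1d1, Tef and Per2 rose with Dbp and Arntl fell. Ciart had the smallest p of all genes, with a slope of 1.24 log2 units per log2 unit of Dbp (standard error 0.24, limma, p = 1.33e-05, adjusted p = 0.228), and Arntl, with a slope of -0.51, was 14th. After adjustment over all genes, 0 members and 0% of genes passed with Dbp (limma). With Arntl, Dbp and Per3 (2 of 9) had an unadjusted p under 0.05 and both fell, beside 16.4% of all genes, and 0 of 9 members against 0.988% of genes had an adjusted p under 0.05 (limma, adjusted p = 0.0567 for Dbp and 0.0594 for Per3). Without the 4 rats with other tissue these became 0.0303 and 0.0248, and 4.46% of genes then passed. The fits of single groups gave 0 of 9 members with p under 0.05 for Dbp in WT rats, 2 in HIP rats and 3 in AKO rats. The share of all genes in these fits was not computed.

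Adjusted over all genes, the count of other members passing with each member is given beside the share of all genes that passed. It was 1 of 9 with Per1 (0.0819% of genes), 4 with Per2 (3.3%), 3 with Per3 (31%), 1 with Nr1d1 (0.0585%) and 6 with Nr1d2 (18.5%). For Ciart it was 0 (0.00585%), for Tef 4 (5.1%) and for Cry1 2 (17.5%). Of the pairs, 6 had an adjusted p under 0.05 with either gene as the covariate (limma): Per1 with Per2 (larger adjusted p = 0.0220), Per2 with Per3 (0.0278), Per2 with Tef (0.0439), Per3 with Nr1d2 (0.0237), Nr1d2 with Tef (0.00227) and Nr1d2 with Cry1 (0.00990). Without the 4 rats with other tissue, Per3 with Nr1d2, Nr1d2 with Cry1 and Per2 with Tef had larger adjusted p of 0.122, 0.176 and 0.0940, and the other 3 had at most 0.0382. Per3 with Arntl (0.0248), Nr1d1 with Ciart (0.0469) and Ciart with Tef (0.0485) then passed in their place.

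The slope on Dbp was also compared between groups. Of the 9 other members, 0 had an unadjusted p under 0.05 for the difference in slope of HIP against WT rats, beside 1.58% of genes, and 0 for AKO against WT rats, beside 1.54% (limma). The largest difference was that of Per3 (AKO minus WT, 1.18 log2 units per log2 unit, standard error 0.72, p = 0.113). For Arntl the slope was -0.32 in WT, -0.49 in HIP and -0.63 in AKO rats, and the standard errors of the differences from WT were 0.40 and 0.42.

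Of 21 other clock genes, 2 had p under 0.05 with Dbp, 6 with Per1 and 6 with Arntl, where all genes gave 5.3%, 5.08% and 16.4%. With Per1, 5 rose, led by Cry2, a repressor like Cry1 (slope 0.27, limma, p = 0.000343), and Bhlhe40 (Dec1; 0.65, p = 0.000428), and Tipin fell. With Arntl, those that rose included Rora, Rorb, Hlf and Csnk1d, and Bhlhe41 fell. Rora and Rorb encode receptors that activate Arntl through ROREs, and their slopes were 1.22 (limma, p = 0.00252) and 1.35 (p = 0.00623). Rorb is also a neocortex marker. With the mean log2 level of those markers, Arntl had rho = 0.60 (permutation p = 0.00078) and r = 0.21 (p = 0.213). The part of tissue in these slopes was not tested. Bhlhe41 (Dec2), a repressor of the activator, rose with Dbp (slope 0.33, standard error 0.11, limma, p = 0.00582), and Clock, the partner of Arntl, fell (slope -0.38, standard error 0.18, p = 0.0414). Neither passed adjustment (adjusted p = 0.846 for both). Between AKO and WT rats Timeless alone of the 21 had p under 0.05 (log2 difference -0.43, limma, p = 0.0201), and between HIP and AKO rats Hlf, the third PAR bZIP factor, was higher in HIP rats (0.46, p = 0.00328) and Nfil3, a repressor at D-boxes, lower (-0.36, p = 0.0374). Between HIP and WT rats 0 of 21 had p under 0.05. None of these passed adjustment (limma, lowest adjusted p = 0.198).

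Of the 12 clock output genes, 3 had p under 0.05 between AKO and WT rats, beside 9.34% of all genes. Cdkn1a, a cell cycle inhibitor, was higher in AKO rats (log2 difference 0.88, limma, p = 0.0199), as was Avp, the vasopressin gene (0.88, p = 0.0233), and Wee1, a cell cycle kinase, was lower (-0.23, p = 0.0443). Avp is a hypothalamus marker as well. Its level was low, with means of 5.57 normalized counts in WT, 5.58 in HIP and 10.2 in AKO rats. Of 8 glucocorticoid targets, Sult1a1, a sulfotransferase, was higher in AKO rats (0.75, standard error 0.15, limma, p = 5.34e-05, adjusted p = 0.0506), and of 4 temperature-responsive genes the chaperone Hspa8 was lower (-0.21, p = 0.00777). Between HIP and AKO rats, Cdkn1a (-0.87, limma, p = 0.00702), Sult1a1 (-0.63, p = 0.000222) and the chaperone Hspb1 (-0.97, p = 0.00059) were lower in HIP rats, beside 12.7% of all genes. So were Avp (-1.06, limma, p = 0.0227), Ddit4 (-0.31, p = 0.0239), Egr4 (-0.50, p = 0.0248) and Ier2 (-0.44, p = 0.0426), whereas Gpr176, an orphan receptor of the clock centre of the hypothalamus, was higher (0.28, p = 0.00553). None of these had an adjusted p under 0.05, and between HIP and WT rats 0 genes of any of these lists had an unadjusted p under 0.05 (limma).

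Immediate early genes, which neurons switch on when they fire, varied with Dbp. Of 11 such genes in the table, 8 had p under 0.05 with Dbp, all rising, beside 5.3% of all genes with p under 0.05. They were led by Npas4 (slope 1.76, standard error 0.54, limma, p = 0.00287) and Junb (0.91, standard error 0.32, p = 0.00797). With Arntl, 4 of 11 fell, beside 16.4% of all genes with p under 0.05, led by Ier2 (slope -0.96, p = 0.00109) and Btg2 (-1.28, p = 0.00369). The median slope over the 11 genes was 0.79 with Dbp and -0.88 with Arntl, where the medians over all genes were 0.0048 and 0.0022. None had an adjusted p under 0.05 (limma, lowest 0.846 with Dbp and 0.0638 with Arntl).

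With Per1, 5 of the 11 immediate early genes rose, led by Fosb (slope 0.97, limma, p = 0.00537) and Nr4a1 (0.79, p = 0.00566), beside 5.08% of all genes with p under 0.05. So did 6 of 8 glucocorticoid targets. Of these, Sgk1, a kinase that regulates ion channels, had the smallest p (slope 0.58, standard error 0.12, limma, p = 6.09e-05, adjusted p = 0.0612), followed by Ddit4 (0.37, p = 0.000397). None of the 8 passed with Dbp. Of the 12 clock output genes 4 rose with Per1, and Pdk4, a kinase that restrains glucose oxidation and a glucocorticoid target as well, passed adjustment (slope 0.87, standard error 0.17, limma, adjusted p = 0.0285). Of the list of temperature-responsive genes, 4 were in the table, and Dnajb1 was the only one with p under 0.05 with Per1 (slope 0.19, limma, p = 0.0222).

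Over the whole table, the genes that fell most clearly with Dbp were Thbs2, Mmp14, Dab2, Lrrc25 and Slc6a20 (partial r from -0.68 to -0.64, limma, lowest adjusted p = 0.276). Thbs2 encodes a matrix glycoprotein and Mmp14 a membrane-bound matrix metalloproteinase. Those that rose most clearly were Mettl7a, RT1-Db2, Gpd1, Cyren and Kcnip3 (partial r from 0.56 to 0.61, lowest adjusted p = 0.776). With Arntl, Akr1c19, Abhd4, Pmel, Klf2 and Myh14 fell (partial r from -0.75 to -0.69) and Hbs1l, Il1rn, Mical2, Gspt1 and Hunk rose (partial r from 0.68 to 0.75), all with adjusted p of at most 0.0306 (limma).

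Arntl was low and Per3 high, for their groups, in the rats with the highest olfactory bulb markers. The 6 olfactory bulb markers summed to 8240 to 14900 normalized counts in 5 rats (WT 10RT50 and 10RT51, HIP 10RT49 and 10RT53, AKO 6AKO35) and to at most 5065 in the others. In these 5 rats Arntl was 471, 425, 482, 461 and 548, each below its group median (556, 535 and 566 for WT, HIP and AKO). Per3 was 692, 517, 504, 655 and 640, each above its group median (424, 431 and 404). The pattern was not particular to Arntl and Per3. Per2 and Cry1 were also above their group medians in each of these 5 rats. Tef was below its group median in each, though barely in 10RT49 (5436 against 5437). The share of all genes on 1 side of their group medians in these rats was not computed. With the mean log2 level of the bulb markers as a further covariate, which was chosen after the data were seen, 5 members had p under 0.05 with Dbp and 3 with Arntl, against 5 and 2 without it. The share of all genes with this covariate was not computed.

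Over all rats, all 10 members correlated negatively with microglia markers, and for Nr1d2 and Ciart the adjusted p was under 0.05. The share of all genes with such correlations was not computed, so they cannot be read as particular to the members. With the mean log2 level of 6 microglia markers, Nr1d2 had r = -0.69 (permutation p = 1e-04; rho = -0.70, p = 7e-05) and Ciart r = -0.60 (permutation p = 0.0011; rho = -0.53, p = 0.00422) over 30 rats after group means were removed. Benjamini-Hochberg adjustment over 130 correlations of the members with 12 marker lists and the library number gave 0.0130 and 0.0477. Cry1 (r = -0.58), Tef (r = -0.56) and Nr1d1 (r = -0.51, rho = -0.67) had adjusted p of 0.0649, 0.0649 and 0.0833 (permutation). Pineal gland markers correlated negatively with all 10 members, and astrocyte and hypothalamus markers with 9 of 10 each. Of these, 0 had an adjusted p under 0.05. Without AKO rat 4KAH27 and HIP rat 10RT48, the rats farthest from the median of the microglia markers, r with these markers was -0.64 for Nr1d2 and -0.31 for Ciart. The r of Nr1d2 was -0.86 in WT, -0.51 in HIP and -0.72 in AKO rats. Within groups the signs were not uniform. In WT rats r was 0.26 for Per1, 0.12 for Per2, 0.33 for Dbp and 0.02 for Tef. In HIP rats it was 0.49 for Arntl and in AKO rats 0.17 for Per3, and it was negative for the other members of each group. WT rat 10RT43, the rat with cerebellum markers, had the lowest microglia level (8.24) and the highest Nr1d2 (3217) of the WT rats. Without the 4 rats with other tissue, r of Nr1d2 over all groups was -0.66. Rat 10RT48 had the highest microglia sum of all (9952, next HIP rat 4178) and the lowest Dbp and Ciart and highest Arntl of the HIP rats, and the part of microglia in these levels was not tested. Of the other lists, olfactory bulb markers passed the same adjustment with Arntl (adjusted p = 0.0351, permutation) and not with Per3 (adjusted p = 0.185), but in their level the rats fall into separate clusters.

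**Figure D5:**
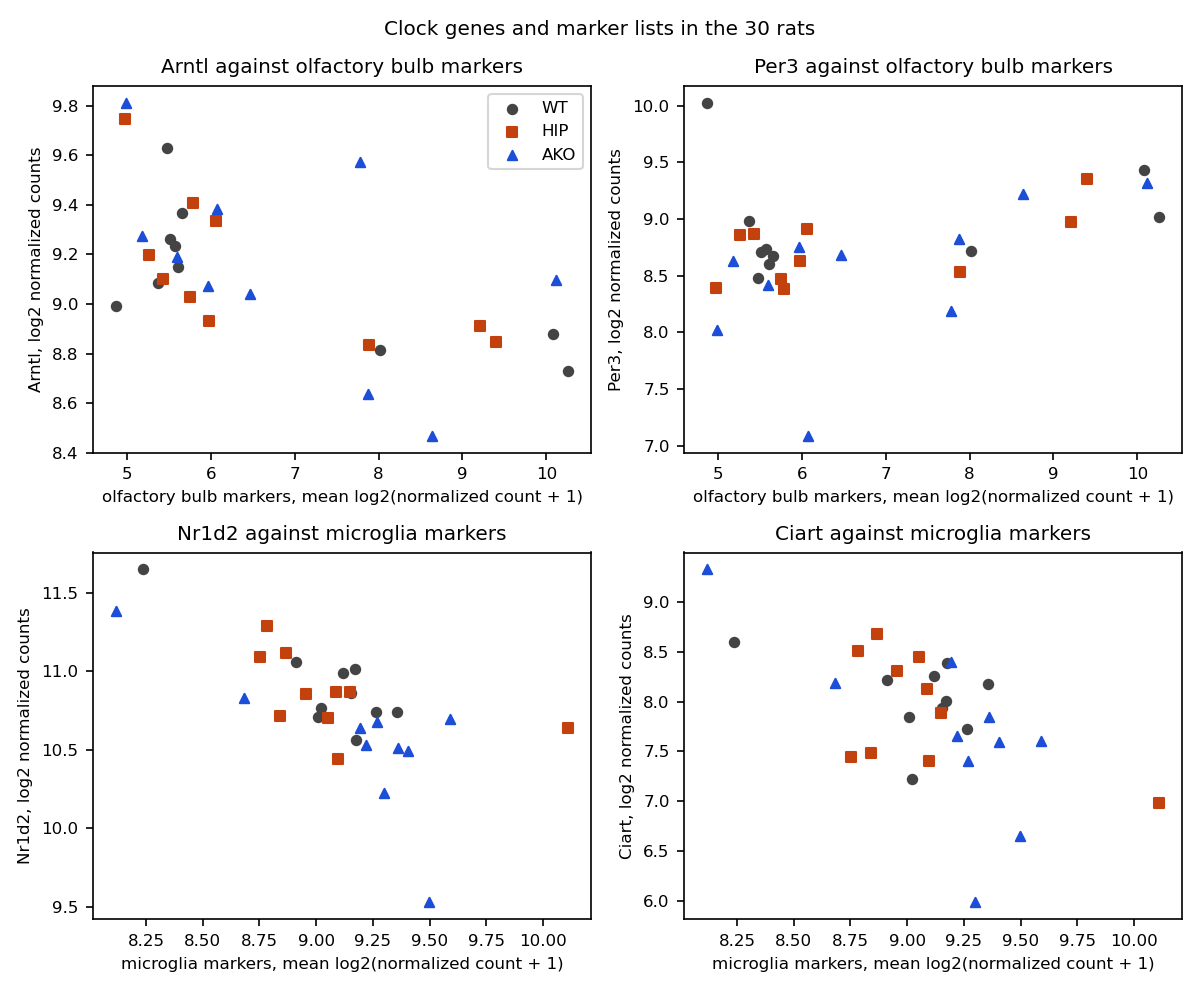
Log2 normalized counts of Arntl and Per3 against the mean log2 level of olfactory bulb markers, and of Nr1d2 and Ciart against that of microglia markers, with 1 point per rat. The 5 rats with the highest bulb markers have Arntl below and Per3 above their group medians, and Nr1d2 (r = -0.69) and Ciart (r = -0.60) are lower where microglia markers are higher.

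Each library's name ends in a number whose meaning is not given. Arntl had r = -0.38 with it (permutation p = 0.0465; rho = -0.47, p = 0.0138) and Cry1 r = 0.38 (permutation p = 0.0454; rho = 0.33, p = 0.0863), and both had an adjusted p of 0.208 over the 130 correlations. Without the 2 rats farthest from the median number, r was -0.32 for Arntl and 0.43 for Cry1.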

How the data were processed

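The authors sequenced brain RNA of 30 rats, aligned the reads to the rn7 genome using Partek Flow, quantified Ensembl genes and normalized with DESeq2. The submitters' processing notes name Partek 10.0.22.0228, STAR 2.7.8a and Bowtie2, with no role. What was deposited is a normalized signal, the normalized read counts. Whole reads could not be recovered from it, so no count test was run. Groups came from the genotype labels.

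Members and gene lists were chosen with earlier results of these data known. Tests were limma 3.58.1 in R 4.3.3 (lmFit, eBayes with trend), two-sided, on log2(normalized count + 1) of genes averaging 1 or more over the rats compared, adjusted by Benjamini-Hochberg over all genes tested. This scale understates changes of low genes. Relations used group means and 1 member, centred within groups, as covariates. Correlations were tested by 100000 permutations within groups in Python 3.11.15 with numpy 2.4.6. The fit was tested on simulated data.

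Nothing in the labels ties rats to litters or batches, and p-values measure the spread between these rats. All 10 members passed the filter. Named beside the members are, for Dbp and Arntl, the 5 genes with a symbol and the smallest p in each direction, and listed genes with an adjusted p under 0.05 with Dbp or Per1 or an unadjusted p under 0.05 between groups, at most 8 a list. Genes named for a relation with an unadjusted p alone (Bhlhe41, Clock, Cry2, Bhlhe40, Tipin, Rora, Rorb, Csnk1d, Npas4, Junb, Ier2, Btg2, Fosb, Nr4a1, Sgk1, Ddit4 and Dnajb1) were chosen after their values were seen. Estimated reads were 12.9 to 23.6 M per rat. Alternatives were pseudocounts, filters, scalings, weights, covariates and left-out rats. Blood markers are not analysed here.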

Additional observations from a re-analysis of the deposited data

Results flagged for a closer look

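In each group of 10 rats, the highest or lowest rat of each member was examined for a gap to its neighbour that was large for the range of the group (Dixon's test at the 95% level). Of 30 combinations of gene and group, 6 met this, all at the high end. The gaps were taken on normalized counts and were not examined on the log2 scale of the other tests. A chance rate of about 1 in 20 holds for normally distributed, independent values. Here several flags came from the same rat in genes that correlate, so the 6 are not compared with that rate. WT rat 10RT43 stood apart for Per3 (1043 normalized counts), Nr1d2 (3217) and Cry1 (569), and it is the rat with 77427 normalized counts of cerebellum markers. AKO rat 4KAH27 stood apart for Ciart (643) and Cry1 (455). It had the lowest mean log2 level of microglia markers of all rats (8.12). HIP rat 10RT53 stood apart for Per3 (655), and it had the highest olfactory bulb marker sum of the HIP rats (9258). The part of these tissues and cells in the values was not tested.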

How the results depend on the processing

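The counts of members with an unadjusted p under 0.05 moved most for AKO against WT, by over 1.5 times in 12 of 20 fits that left out 1 rat. AKO against WT gave 1 in place of 2 with sample-quality weights, without 10RT43 and 10RT46, with Dbp as a covariate (Dbp is then not tested), without the 4 rats with other tissue and with the AKO rats of the letters AKO alone. HIP against AKO gave 1 (Nr1d2) in place of 0 with weights, without 10RT43 and 10RT46, without the 4 rats and with the letters AKO alone. With Dbp the count was 8 under weights, 0 in WT, 2 in HIP and 3 in AKO rats in place of 5, and the adjusted count was 6 under weights and 1 without 10RT43 and 10RT46 in place of 0. With Arntl it was 6 under weights in place of 2, and the adjusted count was 1 under quantile normalization, 4 under weights, 2 without 10RT43 and 10RT46 and 2 without the 4 rats in place of 0. The cause was not tested. The share of all genes called was not computed under these settings or with 1 rat left out. The exception is the relation fits without the 4 rats (with Arntl, adjusted, 4.46% of genes). These counts therefore cannot be read as particular to the members. Leaving out 1 rat at a time gave 0 to 1 for HIP against WT (1 without 10RT47: Cry1, -0.36, limma, p = 0.0404), 0 to 4 for AKO against WT (0 without 10RT44, 10RT55 or 6KAH99, 4 without 4KAH27 and 1 without 10RT38, 10RT43, 10RT45, 10RT57, 6AKO52, 6KAH98, 7AKO19 or 7AKO42) and 0 to 1 for HIP against AKO (1 without 10RT46, 4KAH27 or 7AKO30). It gave 3 to 6 with Dbp (adjusted, 0 to 1, with 1 without 10RT43 or 4KAH27) and 2 to 5 with Arntl (5 without 4KAH27; adjusted, 0 to 2, above 0 without 10RT43 or 6KAH98). Dbp in AKO against WT had -0.26 (limma, p = 0.0625) with weights.

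Of single values, 125 changed sign, and 0 of these had p under 0.05 before or after. With weights, HIP against WT gave Per1 0.049, Per2 0.00088, Nr1d2 0.068, Arntl -0.077 and Ciart 0.095, AKO against WT gave Arntl -0.14, and HIP against AKO gave Per1 0.044, Arntl 0.070 and Cry1 0.066. Without 10RT43 and 10RT46, HIP against WT gave Per1 0.0062, Nr1d1 0.017, Nr1d2 0.077 and Ciart 0.0097. Without the 4 rats it gave Per1 0.019, Nr1d1 0.0098, Nr1d2 0.10, Arntl -0.0063 and Ciart 0.072, HIP against AKO gave Per1 0.0050, and the correlation of Dbp with Cry1 was 0.086. With the letters AKO alone, AKO against WT gave Per2 0.040 and Arntl -0.063, and HIP against AKO gave Per2 -0.20, Per3 -0.036, Dbp -0.049, Arntl 0.082 and Tef -0.0040. The slope of Cry1 on Dbp was 0.060 under quantile normalization, 0.0020 under median-ratio rescaling, 0.16 with weights, 0.087 without 10RT43 and 10RT46, 0.15 in HIP rats, 0.081 without the 4 rats and 0.00091 with bulb markers, and in WT rats the slopes of Per3 and Nr1d2 were -0.58 and -0.18. Slopes on Arntl were -0.10 for Nr1d2 and -0.074 for Tef under quantile normalization, -0.062 and -0.055 with weights, -0.037 and -0.067 in HIP rats and -0.19 and -0.057 with bulb markers. For Cry1 they were 0.10 with the library number, 0.51 in AKO rats and 0.032 with bulb markers, for Nr1d1 0.35 in WT rats and for Per1 0.20 in AKO rats. Leaving out 1 rat, HIP against WT ran from -0.15 to 0.036 for Per1, -0.050 to 0.042 for Nr1d1, -0.099 to 0.031 for Nr1d2 and -0.049 to 0.076 for Arntl. AKO against WT ran from -0.046 to 0.12 for Per1 and -0.033 to 0.12 for Arntl. HIP against AKO ran from -0.089 to 0.14 for Per2, -0.0063 to 0.18 for Dbp, -0.097 to 0.052 for Arntl and -0.13 to 0.035 for Cry1. The slope of Cry1 on Dbp ran from -0.13 to 0.090, and slopes on Arntl from -0.10 to 0.089 for Nr1d1, -0.23 to 0.11 for Nr1d2, -0.062 to 0.14 for Tef and -0.44 to 0.065 for Cry1. No paired analysis was possible because the labels give the groups no shared replicate numbers. The fits without the 4 rats, with the letters AKO alone and with bulb markers were chosen after seeing the data. Covariates were centred within groups and so cannot move a group difference. Depth is known only as an estimate.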
